A study of Mus musculus with 16 samples.

Results

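The genes described here are 8 members of the SLC7 family of amino acid transporters (Slc7a1, Slc7a2, Slc7a3, Slc7a5, Slc7a6, Slc7a7, Slc7a8 and Slc7a11) and Slc3a2, the heavy chain that several of them share. They were chosen by name, with earlier results of these data known, as were the gene lists used below. They make up 9 of the 19108 gene symbols with values, and all 9 were among the 13666 that passed the filter on low counts. RNA came from the quadriceps, a thigh muscle, of 16 C57BL/6 mice aged 6 months. The animals were 4 wild-type (WT) females, 4 WT males, 4 ANT1(Tg)/+ females and 4 ANT1(Tg)/+ males, and the latter 8 are called Tg below. ANT1(Tg)/+ mice carry a transgene of Ant1, now named Slc25a4, which encodes the carrier that exchanges ADP and ATP across the inner mitochondrial membrane. All mice ate ordinary chow, and littermates were used as controls where possible. The promoter that drives the transgene is not given in the sources used here.

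Transporters of this family work in either of 2 ways. Light chains such as Slc7a5, Slc7a6, Slc7a7, Slc7a8 and Slc7a11 are joined by a disulfide bond to a heavy chain, Slc3a2, which brings the pair to the cell surface, where it exchanges 1 amino acid for another. The cationic amino acid transporters Slc7a1, Slc7a2 and Slc7a3 need no heavy chain and carry arginine, lysine and ornithine. In muscle, leucine entering through light chains stimulates protein synthesis by way of the kinase mTOR, cystine entering through Slc7a11 supplies cysteine for glutathione, and arginine feeds the synthesis of nitric oxide, creatine and polyamines. Several genes of the family are textbook targets of Atf4, a transcription factor induced by amino acid shortage and by mitochondrial stress, which binds a composite C/EBP-ATF element together with C/EBP proteins.

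Promoter windows from 250 bases before to 50 bases after an annotated start were taken from RefSeq (GRCm38.p6), which had 12 windows for 6 of the 9 genes (Slc3a2, Slc7a1, Slc7a6, Slc7a7, Slc7a8 and Slc7a11). The C/EBP-ATF element was searched on both strands as TGATGNAA. It was present in 3.97% of all windows and, counted by gene, in 4.51% of all genes with a window. Of the 6 genes, Slc7a11 and Slc7a7 held it, each at more than 1 place in a single window, and their sequences are shown because in Tg muscle the RNA of Slc7a11 rose and that of Slc7a7 did not pass the test. Both run 5′ to 3′ on the minus strand from 150 bases before the start to 10 bases after it, with the matches in capitals (TTGCATCA is the element read on the other strand).
Slc7a11, chr3:50443604-50443763: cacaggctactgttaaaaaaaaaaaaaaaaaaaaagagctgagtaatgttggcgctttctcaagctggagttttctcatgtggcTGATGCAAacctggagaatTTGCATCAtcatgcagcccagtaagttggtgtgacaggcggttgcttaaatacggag
Slc7a7, chr14:54417935-54418094: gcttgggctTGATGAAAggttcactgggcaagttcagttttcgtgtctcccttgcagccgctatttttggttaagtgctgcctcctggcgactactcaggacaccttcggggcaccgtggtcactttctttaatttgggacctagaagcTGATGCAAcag
In Slc7a11 the matches began 66 and 47 bases before the start, and in Slc7a7 they began 141 bases and 1 base before it. A match is a run of letters, and no binding was measured. The antioxidant response element core, TGACNNNGC, which occurs in 12.4% of all windows and 13.99% of genes, was found in windows of Slc7a1 and Slc7a6. The E-box CACGTG, present in 7.15% of all windows and 8.09% of genes, was found in none of the 12.

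The libraries held 17435895 to 30680324 counts each, and levels below are counts per 1000000 (CPM) on library sizes scaled by TMM factors. In such a library 3 counts correspond to 0.101 to 0.165 CPM, the limit that a count of 0 allows; this limit and the intervals on count ratios cover counting error only. Slc25a4 itself, the check of the genotype labels, averaged 3399 ± 408 CPM in WT and 9755 ± 876 CPM in Tg mice (SD, n = 8 each), although a count per symbol cannot tell RNA of the transgene from that of the native gene. A gene is said to have risen or fallen where edgeR's quasi-likelihood test gave a Benjamini-Hochberg adjusted p under 0.05 over all tested genes, and values after a log2 difference are its standard error (SE). The skeletal muscle fibre markers, 7 of 7 above 0 in every library, summed to 85362 to 128800 CPM in WT and 82548 to 114476 CPM in Tg muscle.

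The main question was how the transporter genes differed between Tg and WT muscle. Averaged over the sexes, 5 of the 9 genes rose (Slc3a2, Slc7a1, Slc7a3, Slc7a5 and Slc7a11), 1 fell (Slc7a8), and Slc7a2, Slc7a6 and Slc7a7 did not pass the test. Over all tested genes 17.2% rose and 13.3% fell. Because the 9 genes were chosen with earlier results of these data known, the comparisons with all tested genes are descriptions only. The median log2 difference of the 9 genes was 1.62, against -0.01 over all tested genes. Every Tg library lay above every WT library for the 5 genes that rose, which was so for 5.23% of all tested genes, while no gene of the 9 had every Tg library below every WT library (2.69% of all tested genes).

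**Figure D1:**
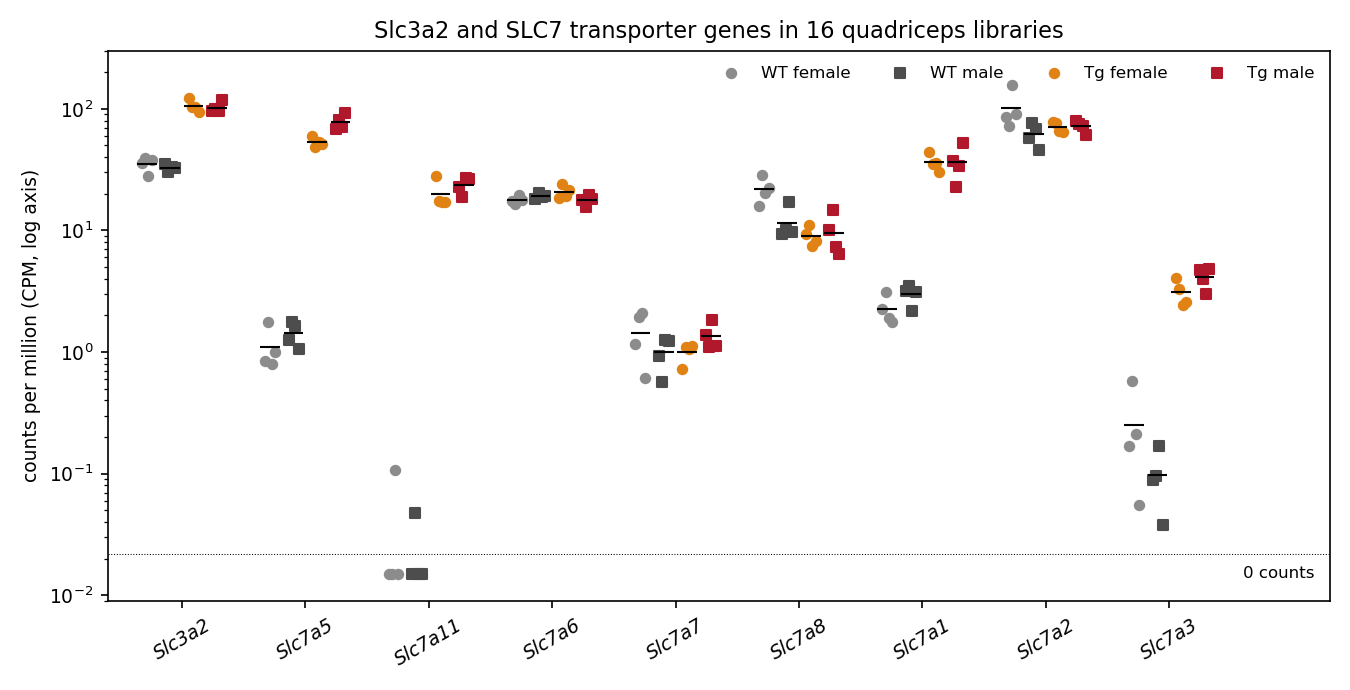
Level of each gene in each of the 16 libraries (CPM, log axis), with circles for females, squares for males, grey for WT and colour for Tg, and bars at the mean of each group of 4 where no library had 0 counts. Points under the dotted line had 0 counts. Slc3a2, Slc7a5, Slc7a11, Slc7a1 and Slc7a3 have every Tg library above every WT library, whereas the Tg and WT libraries of Slc7a6, Slc7a7 and Slc7a2 overlap.

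Slc3a2 (chr19:8706882-8723369, minus strand, mm10), the heavy chain, had 36.1, 39.2, 28.2 and 37.8 CPM in the 4 WT females and 35.3, 30.2, 33.2 and 32.4 CPM in the 4 WT males. Its level was 124, 104, 103 and 93.3 CPM in Tg females and 95.6, 99.7, 96.7 and 117 CPM in Tg males. The lowest Tg library was well above the highest WT library, and the 2 sexes overlapped within each genotype. The rise was 3.06-fold (log2 difference 1.62, SE 0.08, adjusted p = 2.6e-10), and it was 1.59 (SE 0.11) on the log2 scale in females and 1.64 (SE 0.11) in males.

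Slc7a5 (chr8:121881150-121907694, minus strand) encodes the light chain that imports leucine and other large neutral amino acids in many growing cells. WT females had 0.839, 1.77, 0.8005 and 0.993 CPM and WT males 1.25, 1.76, 1.64 and 1.05 CPM. In Tg females the level was 59.2, 48.4, 53.6 and 51.1 CPM, and in Tg males it was 68.1, 81.4, 71.1 and 92.3 CPM. The gene thus went from a level near 1 CPM in every WT library to 48.4 CPM or more in every Tg library, a 51.8-fold rise (log2 difference 5.69, SE 0.15, adjusted p = 2.06e-13).

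Slc7a11 (chr3:49892526-50443614, minus strand) encodes the light chain that imports cystine in exchange for glutamate. In WT muscle it was detected in WT female 3, with 2 counts, and in WT male 2, with 1 count, and the other 6 WT libraries had 0 counts. Tg females had 28.2, 17.5, 17.0 and 17.0 CPM and Tg males 22.9, 18.9, 27.0 and 26.4 CPM. All 8 Tg libraries therefore expressed a gene that was at or under the limit of detection in all 8 WT libraries. Summed counts were 4354 in Tg and 3 in WT, a ratio of 1316 with an exact 95% interval of 450 to 6385. The ratio was 867 (240 to 7164) in females and 2233 (400 to 88237) in males. Because it rests on 3 WT counts, it became 3537 (635 to 139742) without WT female 3, 1744 (482 to 14404) without WT male 2, and 818 (280 to 3969) without the 4 libraries richest in adipocyte markers (WT females 1 and 2, WT male 1 and Tg female 4).

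Neither Slc7a6 nor Slc7a7 passed the test. Slc7a6 (chr8:106168857-106198706, plus strand), which exchanges cationic for neutral amino acids, lay at 16.5 to 20.3 CPM in WT (median 18.5) and at 15.5 to 24.0 CPM in Tg libraries (median 18.9). Its log2 difference was 0.06, with a 95% interval of -0.08 to 0.19 (adjusted p = 0.546), the narrowest interval of the 9 genes. Slc7a7 (chr14:54369442-54417780, minus strand), a light chain of the same transport type that is also found in macrophages, lay at 0.572 to 2.08 CPM in WT (median 1.21) and 0.727 to 1.82 CPM in Tg libraries (median 1.11). Its log2 difference was -0.05, with an interval of -0.56 to 0.46 (adjusted p = 0.895), and its sign differs between settings of the analysis. The exons of Slc7a7 overlap those of Oxa1l on the opposite strand, a gene that rose (log2 difference 0.30, SE 0.06, adjusted p = 0.000662). The libraries were stranded, but whether the counting used strand is not given in the sources used here, so counts of Slc7a7 are uncertain by any reads of Oxa1l.

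Slc7a8 (chr14:54722209-54781946, minus strand), a light chain for small and large neutral amino acids, was the single gene of the 9 that fell. WT females had 15.8, 28.3, 20.4 and 22.3 CPM and WT males 9.36, 10.1, 17.3 and 9.64 CPM. Tg females had 9.41, 10.99, 7.41 and 8.20 CPM and Tg males 10.02, 14.7, 7.33 and 6.38 CPM. The 4 WT females stood above all 4 Tg females, whereas the males of the 2 genotypes overlapped, and WT male 3 was higher than the other WT males. Averaged over the sexes the level was lower by a factor of 1.70 (log2 difference -0.77, SE 0.19, adjusted p = 0.00583). In bulk muscle, fewer cells of a type and less RNA per cell cannot be told apart.

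Markers of other cells were read beside Slc7a8 in females. The 9 macrophage markers, none at 0 in any library, summed to 161, 263, 282 and 90.01 CPM in WT females and 50.7, 113, 83.8 and 139 CPM in Tg females. All 9 had a lower fitted mean in Tg than in WT females (median log2 difference -1.001) and 0 of 9 passed the test. Their unadjusted p ran from 0.0171 (C1qa) to 0.0488 (Adgre1), apart from Cd68 at 0.236. In males their sums ran from 101 to 204 CPM in WT (median 163) and from 105 to 257 CPM in Tg (median 139). With the mean log2 level of these markers as a covariate, an alternative chosen after seeing the data, Slc7a8 was called lower. Averaged over the sexes the log2 difference was -0.72 (adjusted p = 0.0207), against -0.77 (adjusted p = 0.00583) without the covariate. In females it was -1.16 (adjusted p = 0.0348), against -1.27 (adjusted p = 0.00445). The markers also had lower fitted means in Tg females, so the covariate cannot separate the number of cells from RNA per cell. The 7 fibroblast markers summed to 680 to 1599 CPM in WT females and 501 to 1101 CPM in Tg females. All 7 also had a lower fitted mean in Tg females (log2 difference -1.05 to -0.07, median -0.45), and 0 of 7 passed the test. So did all 7 smooth muscle and pericyte markers (-0.49 to -0.03) and all 8 adipocyte markers (-1.74 to -0.42, median -1.33), and none passed. Endothelial, satellite cell, Schwann cell and muscle fibre markers went both ways, and the 3 red blood cell markers had higher fitted means. The part of these cells in the result was not tested. The 8 adipocyte markers, also none at 0, ran from 302 to 3191 CPM in WT females and from 351 to 1335 CPM in Tg females. Without the 4 libraries richest in them Slc7a8 differed by -0.80 averaged over the sexes (adjusted p = 0.0192).

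**Figure D2:**
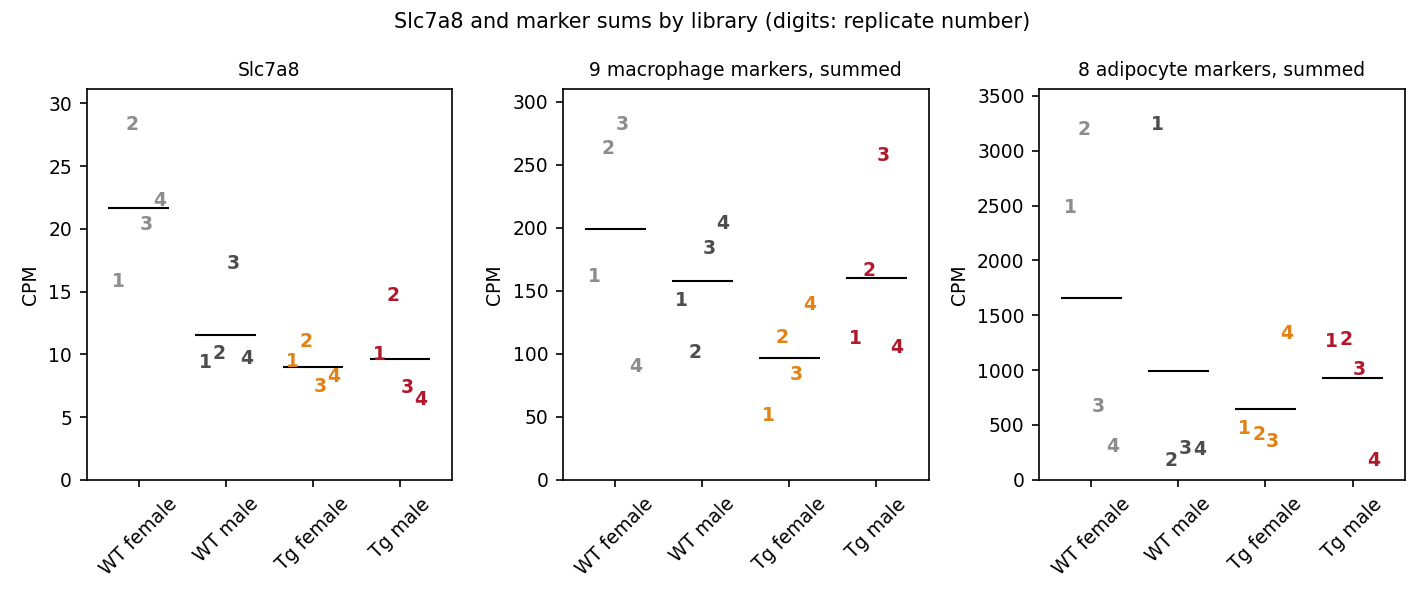
Slc7a8 (left), the summed level of 9 macrophage markers (middle) and of 8 adipocyte markers (right) in CPM by group, where each digit is the replicate number of a library and the bar is the group mean. Slc7a8 lies at 15.8 to 28.3 CPM in WT females and 7.41 to 10.99 CPM in Tg females. WT females 2 and 3 have the highest macrophage sums of their group, and WT female 4, with 22.3 CPM of Slc7a8, has the lowest (90.01 CPM).

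The cationic amino acid transporters comprised Slc7a1 and Slc7a3, which rose, and Slc7a2, which did not pass the test. Slc7a1 (chr5:148327410-148399904, minus strand), the broadly expressed arginine and lysine carrier, had 2.25, 3.12, 1.92 and 1.76 CPM in WT females and 3.16, 3.48, 2.18 and 3.13 CPM in WT males. It had 44.1, 34.98, 36.0 and 30.4 CPM in Tg females and 37.0, 22.9, 34.0 and 52.0 CPM in Tg males. It was low in all 8 WT libraries and far higher in all 8 Tg libraries, and it rose 13.98-fold (log2 difference 3.81, SE 0.17, adjusted p = 3.96e-10).

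Slc7a3 (chrX:101079210-101086020, minus strand), a carrier of the same substrates known mainly from brain, was near the limit of detection in WT muscle. WT females had 0.168, 0.573, 0.213 and 0.0552 CPM and WT males 0.0891, 0.0953, 0.168 and 0.0377 CPM, 30 counts in all. Tg females had 4.03, 3.31, 2.46 and 2.56 CPM and Tg males 4.74, 4.02, 3.001 and 4.81 CPM. Even the highest WT library, WT female 2, was several times below the lowest Tg library, and the rise was 22.4-fold (log2 difference 4.48, SE 0.30, adjusted p = 1.42e-08). In females the log2 difference was 3.61 (SE 0.40), and without WT female 2 it was 4.33 (adjusted p = 1.48e-06).

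Slc7a2 (chr8:40862396-40922308, plus strand), the cationic carrier with the highest level in WT muscle, had 85.8, 72.7, 158 and 90.6 CPM in WT females and 57.8, 76.1, 68.4 and 45.8 CPM in WT males. Tg females had 78.5, 76.4, 65.4 and 64.6 CPM and Tg males 79.5, 74.6, 72.3 and 61.4 CPM. WT female 3 stood far above the rest, and the other libraries of both genotypes overlapped. The log2 difference was -0.15, with an interval of -0.46 to 0.16 (adjusted p = 0.469). In females it was -0.51 (SE 0.21, adjusted p = 0.0972), which passed the threshold without WT female 2 (-0.65, adjusted p = 0.0412) and was -0.22 without WT female 3 (adjusted p = 0.335).

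Levels of different genes are compared per kilobase of merged exons (GENCODE M21). By this scale the WT order was Slc3a2 at 9.65 ± 1.07, Slc7a2 at 8.97 ± 3.72, Slc7a6 at 4.05 ± 0.277 and Slc7a8 at 3.32 ± 1.37 CPM per kb (SD, n = 8). These 4 genes were followed far below by Slc7a7 at 0.369 ± 0.166, Slc7a5 at 0.341 ± 0.110, Slc7a1 at 0.228 ± 0.0576 and Slc7a3 at 0.0462 ± 0.0454 CPM per kb, with Slc7a11 at 0.00139 ± 0.00281 the lowest. Libraries of neighbours overlapped for Slc3a2 and Slc7a2, for Slc7a6 and Slc7a8, and for Slc7a7, Slc7a5 and Slc7a1 in turn.

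In Tg muscle Slc7a5 stood next to its heavy chain. The order there was Slc3a2 at 29.5 ± 3.08, Slc7a5 at 17.7 ± 4.19, Slc7a2 at 7.84 ± 0.757 and Slc7a6 at 4.22 ± 0.560 CPM per kb. Then came Slc7a1 at 3.16 ± 0.754, Slc7a8 at 1.86 ± 0.532, Slc7a11 at 1.57 ± 0.348, Slc7a3 at 0.956 ± 0.244 and Slc7a7 at 0.355 ± 0.0949 CPM per kb. Neighbours from Slc7a6 down to Slc7a3 overlapped, while Slc3a2, Slc7a5, Slc7a2 and Slc7a7 each stood clear of their neighbours. Per kilobase of coding sequence, an alternative chosen after seeing the data, Slc7a2 came before Slc3a2 in WT. In Tg muscle Slc7a1 and Slc7a11 then ranked 4 and 5, above Slc7a6 and Slc7a8. By coding length the Tg libraries of Slc3a2 and Slc7a5 overlapped (55.1 to 73.0 and 31.5 to 60.1 CPM per kb). Those of Slc7a5 and Slc7a2 (30.4 to 39.3) overlapped too.

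The makeup of the light-chain pool changed with these levels. Summed over Slc7a5, Slc7a6, Slc7a7, Slc7a8 and Slc7a11, light-chain RNA was 8.08 ± 1.33 CPM per kb in WT and 25.7 ± 4.02 in Tg muscle. The heavy chain went from 9.65 to 29.5 CPM per kb, so light-chain RNA per unit of heavy-chain RNA was 0.844 ± 0.155 in WT and 0.875 ± 0.142 in Tg muscle over both sexes (1.21 ± 0.224 and 1.25 ± 0.183 by coding length). The ratio was also read within each sex. In males the ratio was 0.643 to 0.896 in WT and 0.972 to 1.06 in Tg libraries, with every Tg male above every WT male, also by coding length (0.910 to 1.28 and 1.36 to 1.45). This separation depends on leaving out Slc7a10, which in WT male 1 had 9.54 CPM per kb against 6.43 for the 5 summed genes. In females it was 0.740 to 1.15 in WT and 0.689 to 0.821 in Tg libraries, which overlapped. Whether the sexes differ in this ratio was not tested. Slc7a6 and Slc7a8 supplied 51.4 ± 9.92% and 39.8 ± 10.3% of the WT pool of these 5 genes. In Tg muscle their shares were 17.0 ± 4.41% and 7.35 ± 2.03%, and Slc7a5 held 68.2 ± 5.60% against 4.29 ± 1.45% in WT. Slc7a11 held 6.14 ± 1.15% of the Tg pool and Slc7a7 1.40 ± 0.356%, against 4.51 ± 1.60% for Slc7a7 in WT. The share of Slc7a11 depends on the length used, since its merged exons are long. By coding length it was 19 ± 3.06% of the Tg pool, with Slc7a5 at 55.4 ± 5.53%. All these shares and ratios, in both sexes, leave out Slc7a10. It ran from 0.0903 (WT male 2) to 9.54 (WT male 1) CPM per kb in WT. In Tg libraries it ran from 0.116 (Tg male 4) to 5.15 (Tg male 2). Counting it would lower every share and raise every ratio, and how WT and Tg would then compare was not tested.

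Together the cationic carriers came to 9.24 ± 3.69 CPM per kb in WT and 11.95 ± 1.09 in Tg muscle. The Tg sums overlapped the WT sums through WT female 3 alone, at 17.5 CPM per kb: the other 7 WT libraries had 5.30 to 10.08 and the lowest Tg library had 10.4. Slc7a2 made up 96.6 ± 1.52% of this pool in WT and 65.7 ± 5.52% in Tg muscle. Slc7a1 went from 2.86 ± 1.39% to 26.3 ± 5.16%, and Slc7a3 from 0.518 ± 0.538% to 7.93 ± 1.60%. By coding length the WT and Tg shares were 95.9 ± 1.90% and 62.5 ± 6.18% for Slc7a2. They were 3.88 ± 1.87% and 34.1 ± 6.13% for Slc7a1, and 0.233 ± 0.243% and 3.41 ± 0.711% for Slc7a3. These shares are descriptions of RNA per exon length (n = 8 each) that rest on the values above, and no protein was measured.

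**Figure D3:**
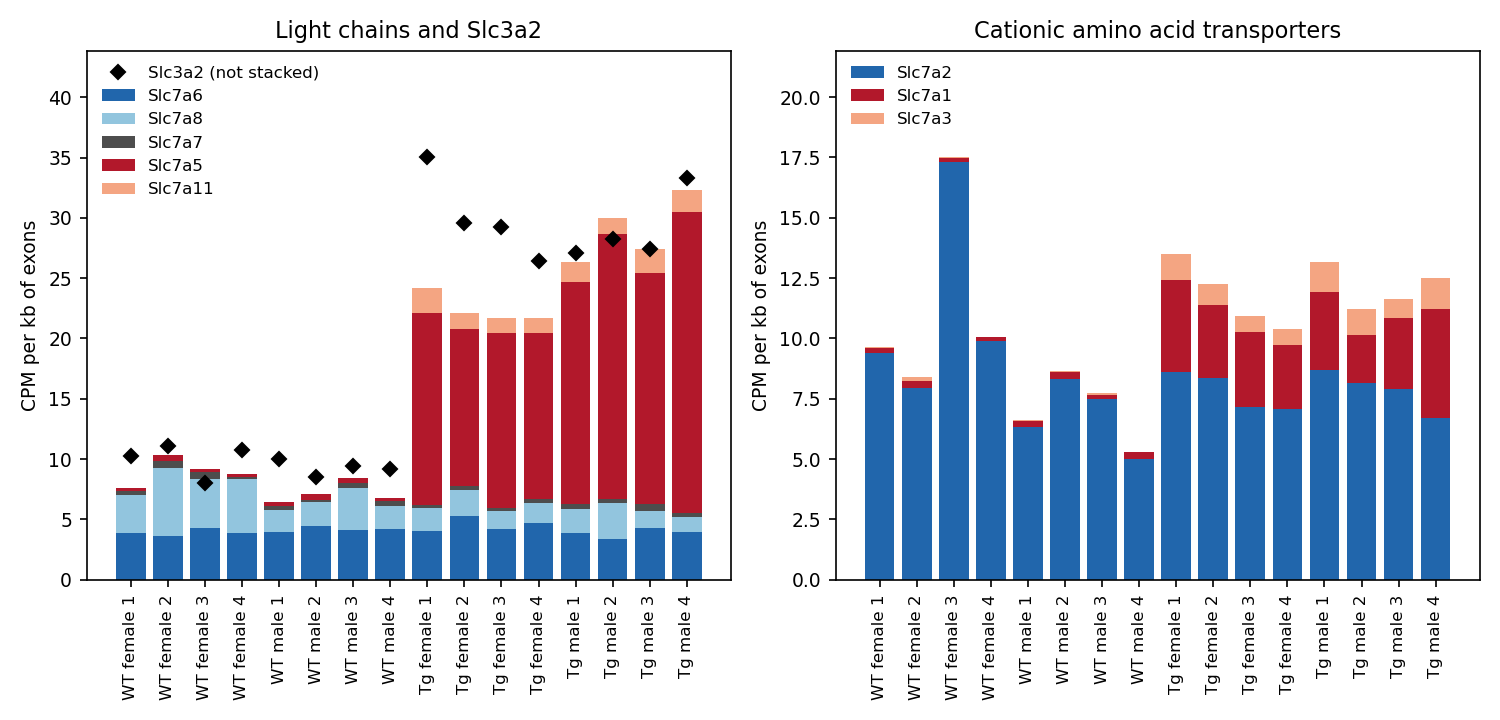
RNA per kilobase of merged exons (CPM per kb) in each of the 16 libraries, stacked for the 5 light chains among the 9 genes (without Slc7a10) with Slc3a2 as diamonds (left) and for the 3 cationic amino acid transporters (right). Slc7a5 fills 68.2% of the light-chain bar on average in Tg and 4.29% in WT libraries, and the diamonds are higher in all Tg than in all WT libraries.

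The sexes were compared to ask whether the transgene acted on these genes alike in females and males. In females 5 of the 9 genes rose and 1 fell, against 10.1% and 7.57% of all tested genes, and in males the same 5 rose and 0 fell, against 9.85% and 8.39%. Slc7a5 rose by 5.61 on the log2 scale in females (SE 0.21) and 5.78 in males (SE 0.21), Slc7a1 by 4.00 (SE 0.25) and 3.61 (SE 0.24), and Slc7a3 by 3.61 (SE 0.40) and 5.35 (SE 0.45). Slc7a8 fell in females, by a factor of 2.41 (log2 difference -1.27, SE 0.27, adjusted p = 0.00445), where every Tg library lay below every WT library, as for 7.22% of all tested genes. In males its log2 difference was -0.27, with an interval of -0.84 to 0.30 (adjusted p = 0.574).

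The difference between the sexes in the genotype effect was tested directly, and 0 of the 9 genes passed (0.00732% of all tested genes did). At an unadjusted p under 0.05 there were 4 of 9, against 7.43% of all tested genes, and no member was called in the interaction by DESeq2 or limma-voom either. Slc7a8 had an interaction of 1.00 on the log2 scale (95% interval 0.20 to 1.80, unadjusted p = 0.0176, adjusted p = 0.584), so the fall in females is not shown to differ from the males. Another was Slc7a3, with 1.74 (0.34 to 3.14, adjusted p = 0.591), which was 1.03 without WT female 2 and 0.75 without the 4 libraries richest in adipocyte markers. The others were Slc7a2, with 0.73 (0.11 to 1.35, adjusted p = 0.607), and Slc7a6, with -0.34 (-0.61 to -0.06, adjusted p = 0.596). For the heavy chain the interaction was 0.06 (-0.27 to 0.38) and for Slc7a5 it was 0.18 (-0.43 to 0.79).

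**Figure D4:**
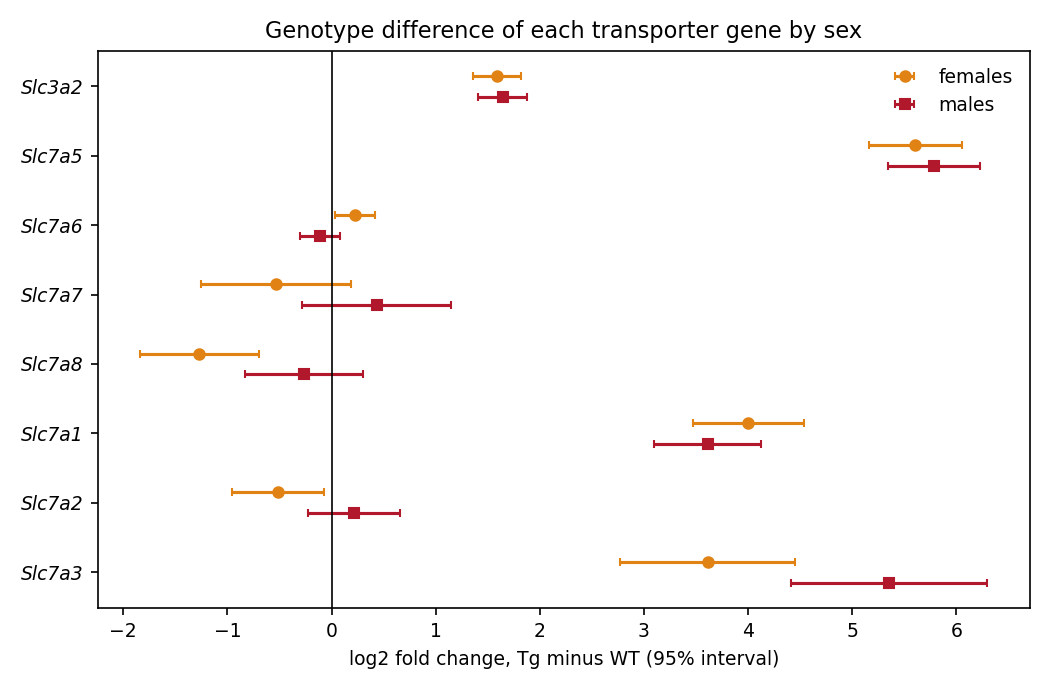
Log2 difference between Tg and WT for 8 of the genes in females (circles) and males (squares), with 95% intervals from the fit over all 16 libraries. Slc7a11 is left out because its fitted value rests on 3 WT counts. The intervals of Slc3a2, Slc7a5, Slc7a1 and Slc7a3 lie above 0 in both sexes, and that of Slc7a8 lies below 0 in females and spans 0 in males.

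Within a genotype, males and females were also set against each other. Of the 9 genes 0 differed between WT males and WT females by the adjusted threshold, against 3.67% of all tested genes, and 3 of 9 had an unadjusted p under 0.05, against 16% of all tested genes. Among these, Slc7a8 was -0.90 in males relative to females (SE 0.26, adjusted p = 0.0773), Slc7a2 was -0.72 (SE 0.21, adjusted p = 0.0738) and Slc7a3 was -1.32 (SE 0.59, adjusted p = 0.278). For none of the 9 did every WT male lie beyond every WT female, as happened for 8.51% of all tested genes. In Tg muscle 0 of 9 differed by the adjusted threshold, against 0.527% of all tested genes, and 2 of 9, Slc7a5 and Slc7a6, had an unadjusted p under 0.05, against 9.41% of all tested genes. Slc7a5 was 1.47-fold higher in Tg males (log2 difference 0.56, SE 0.16, adjusted p = 0.199), and every Tg male stood above every Tg female, which was so in either direction for 7.02% of all tested genes.

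Of 8 other genes of the SLC7 and SLC3 families, 6 had values and 2 passed the filter, and 0 of these 2 rose or fell. Slc3a1, the other heavy chain, and Slc7a4, Slc7a13 and Slc7a15 had at most 10 counts in any library. Slc7a10, a light chain that also pairs with Slc3a2 and is known from neurons and adipocytes, ran from 0.191 to 20.1 CPM in WT and from 0.246 to 10.9 CPM in Tg libraries (log2 difference -0.37, SE 0.79, adjusted p = 0.758). Its highest values, 20.1 CPM in WT male 1 and 18.9 CPM in WT female 2, were in the libraries with the highest adipocyte marker sums, 3238 and 3191 CPM. Slc7a14, at 3.07 to 5.42 CPM over all libraries, had a log2 difference of -0.07 (SE 0.13).

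Of 18 transporters of other families that carry amino acids, 5 rose and 3 fell, with a median log2 difference of 0.01, numbers near the shares of 17.2% and 13.3% over all tested genes. Slc1a4, an exchanger of serine and alanine, rose 10.4-fold, and Slc6a9, a glycine transporter, rose 4.00-fold. Slc38a7 rose 1.48-fold, and Slc16a10, which lets aromatic amino acids pass without exchange, fell (log2 difference -0.87, SE 0.09, adjusted p = 2.32e-06).

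Genes of the metabolism or sensing of the transported amino acids were taken in 3 lists. Of 10 genes of cystine and glutathione metabolism 7 rose and 0 fell (median 0.45), against 17.2% and 13.3% of all tested genes. Among them Cth, which makes cysteine from cystathionine, rose 3.71-fold and the glutathione peroxidase gene Gpx4 1.47-fold. The glutathione reductase gene Gsr rose 1.35-fold and Txnrd1 1.25-fold. Of 12 genes of arginine and polyamine metabolism 10 were tested. Of these 2 rose and 1 fell (median 0.20), near the shares of 17.2% and 13.3% over all tested genes. These were Srm, for spermidine synthesis (1.60-fold), Asl, for arginine synthesis (1.27-fold), and Sms, for spermine synthesis (log2 difference -0.44, SE 0.09, adjusted p = 0.00186). Of 14 genes of leucine sensing and breakdown 4 rose and 2 fell (median 0.08), again against 17.2% and 13.3% of all tested genes. Sesn2, a leucine sensor upstream of mTOR, rose 10.5-fold, the leucyl-tRNA synthetase gene Lars 2.43-fold and Bckdhb, of branched-chain keto acid breakdown, 1.205-fold, while Rragd, a GTPase of the mTOR pathway, fell (log2 difference -0.74, SE 0.09, adjusted p = 9.34e-06).

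Of 12 transcription regulators known to act on SLC7 genes or on Atf4, 10 rose and 1 fell, with a median log2 difference of 1.24. Over all tested genes 17.2% rose and 13.3% fell, but this list was chosen with earlier results of these data known. Trib3, a pseudokinase that is both a target and an inhibitor of Atf4, rose 53.2-fold, Atf5 9.92-fold, Cebpg 2.52-fold and Atf4 2.22-fold. The transcript of Atf4 rose by less than those of Slc7a5, Slc7a1 and Slc7a3.

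Likeness to the 5 genes that rose was measured as the root mean square difference of centred log2 CPM over the 16 libraries, among 10781 other genes whose mean log2 CPM was 1 or more. Nearest to Slc3a2 were Eif3c, a translation initiation factor subunit (0.16), Rnf185, a ubiquitin ligase (0.16), and Gars, the glycyl-tRNA synthetase (0.17), against 0.84 for the median candidate. Nearest to Slc7a5 were Mthfd2, a mitochondrial folate enzyme (0.42), Trib3 (0.43) and Arhgap33 (0.46), against a median of 2.85. Slc7a11 had the same 3 genes nearest, in the order Mthfd2 (0.87), Arhgap33 (1.10) and Trib3 (1.17), against a median of 3.90. The WT libraries with 0 counts of Slc7a11 all share 1 centred value, -4.11, set by the prior count of 2 in the log2 CPM. The distances of Slc7a11 therefore depend on that prior count, and whether the order does was not tested.

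For Slc7a1 the nearest were Sesn2 (0.33), Trim66 (0.37) and Soat2, a sterol acyltransferase (0.39), against a median of 1.92. For Slc7a3 they were Soat2 (0.55), Aldh18a1, of proline synthesis (0.62), and Atf5 (0.62), against a median of 2.08. The measure weights the size of the difference between genotypes, so genes that rose by like amounts come out as near.

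**Figure D5:**
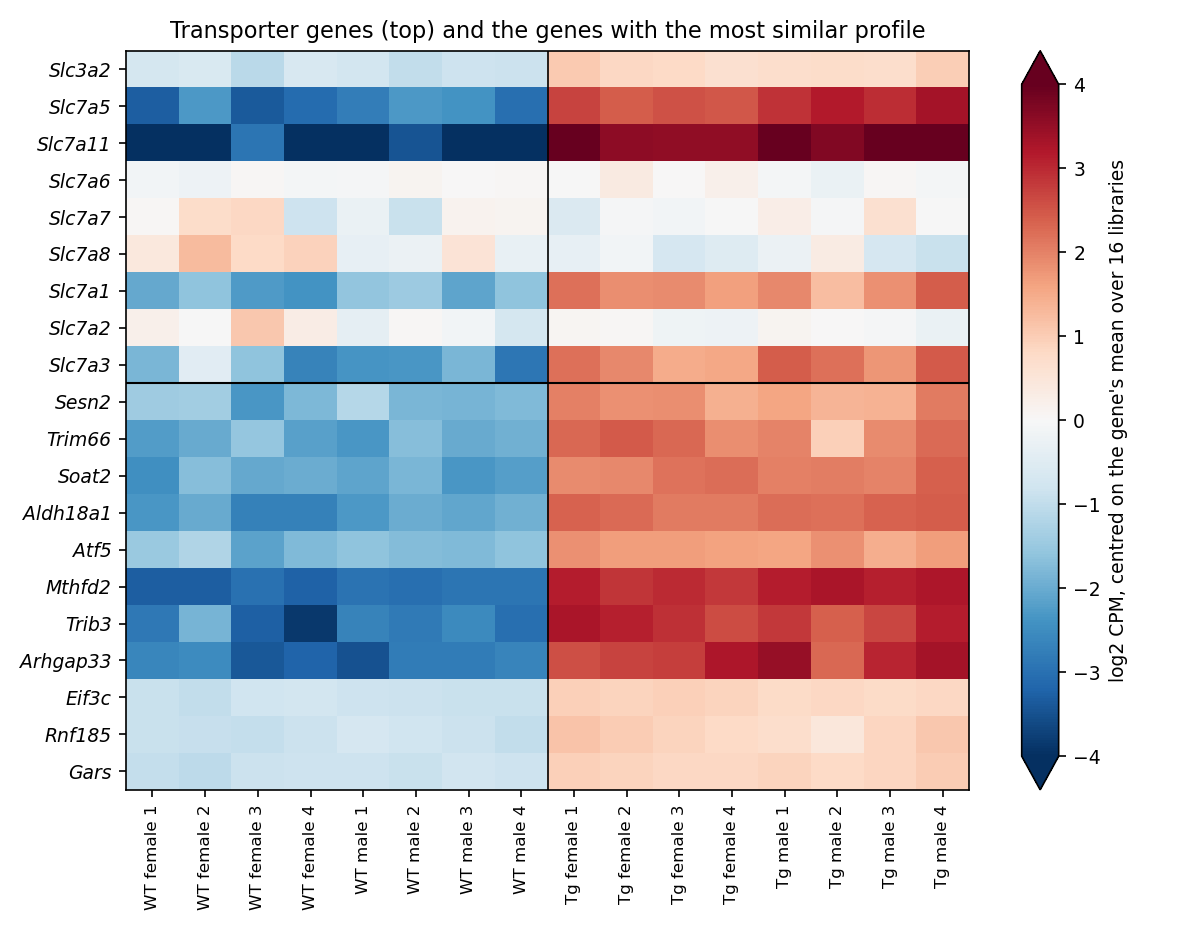
Log2 CPM (with a prior count of 2) of the 9 transporter genes (top) and of the genes most like the 5 that rose (below the line), each centred on its own mean over the 16 libraries, with colours limited to values from -4 to 4. WT libraries are left of the vertical line and Tg libraries right of it. Slc7a6, Slc7a7, Slc7a8 and Slc7a2 are pale on both sides. The 5 genes that rose share the change of colour at the line with the genes below. Slc3a2 (-1.07 to 1.06) and the genes most like it change only between pale shades.

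Markers of the other cells a muscle sample can hold were checked by the averaged effect, by which 17.2% of all tested genes rose and 13.3% fell. Of 8 adipocyte markers 0 rose and 0 fell (Fabp4 at -0.80 on the log2 scale, adjusted p = 0.368), and their sums had a wide range, 175 to 3238 CPM in WT and 176 to 1335 CPM in Tg libraries. None of 9 macrophage markers (Lyz2 -0.55, adjusted p = 0.16), 7 endothelial markers (Cdh5 0.12), 7 fibroblast markers (Dcn -0.30) or 7 smooth muscle and pericyte markers (Rgs5 -0.07) passed. Of 5 satellite cell markers 1 rose (Cdh15, 0.34), although the median of the list was -0.21 and Calcr and Pax7, which did not pass, were at -1.08 and -0.36. Of 5 Schwann cell markers 1 rose (Mag, 0.90, list median 0.28), and of 3 red blood cell markers 1 rose (Hba-a1, 0.38, list median 0.27). Of 7 muscle fibre markers 1 rose (Des, 0.30) and 1 fell (Tnnt3, -0.33), with a list median of -0.15. Without the 4 libraries richest in adipocyte markers the same number of the 9 transporter genes were called, 5 higher and 1 lower.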

How the data were processed

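Poly(A) RNA of quadriceps from 16 mice was sequenced as stranded paired-end reads, per the labels. The authors deposited 1 value per gene symbol and library; no unit is stated, and the values were taken as estimated (expected) counts, since 93.5% of nonzero values lie within 0.01 of a whole number and totals differ between libraries. Per the submitters' processing notes bcl2fastq, cutadapt 1.2.1, TopHat2, Bowtie2 and build mm10 were used; the counting program, and whether it used strand, is not given in the sources used here. These deposited expected counts were rounded, which moved none by more than 0.5.

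In R 4.3.3, edgeR 4.0.16 was run with TMM factors (0.887 to 1.10), filterByExpr (minimum count 10, minimum total 15) and a robust quasi-likelihood fit with 1 mean per group over all 16 libraries. The biological coefficient of variation was 0.201. Contrasts were the genotype effect averaged, in females and in males, the interaction, and the sex difference within each genotype, all two-sided, adjusted by Benjamini-Hochberg over 13666 genes. Intervals are 95%. Slc7a11, with 3 WT counts, was also given as a ratio of summed counts with an exact conditional binomial interval. Scripts were tested on simulated data. Alternatives used RLE factors, no filter, DESeq2 1.42.0, limma-voom (limma 3.58.1), fits without each library, and marker covariates.

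Positions and exon lengths are those of GENCODE M21 on the same build, matched by symbol. The 9 members and all gene lists were chosen with earlier results of these data known. From each list the text names the called genes with the smallest adjusted p, up to 4, or, where none was called, the gene of highest mean CPM; of the other SLC7 and SLC3 genes all with values are named, and the 3 genes nearest to each risen transporter are named by the likeness measure. For the sums of light chains and cationic carriers no test was run.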

Additional observations from a re-analysis of the deposited data

Results flagged for a closer look

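Within the groups of 4 libraries, 36 sets of values (9 genes in 4 groups) were checked for a library that stood apart from its group, by Dixon's ratio of gap to range with a critical value of 0.829. Chance flags about 1 in 20 groups. Slc7a11 had 28.2 CPM in Tg female 1, against 17.0 to 17.5 CPM in the other 3 Tg females. In WT muscle the same gene had 0.107 CPM in WT female 3 and 0.0476 CPM in WT male 2, against 0 in the other 3 libraries of each group, which are 2 counts and 1 count. With 3 libraries at 0 any count in the fourth gives the largest ratio, so these 2 flags follow from the zeros. Slc7a8 had 17.3 CPM in WT male 3, against 9.36 to 10.1 CPM in the other 3 WT males. Slc7a7 had 0.727 CPM in Tg female 1, against 1.05 to 1.11 CPM in the other 3 Tg females, and this library also had the lowest macrophage marker sum of the 16, 50.7 CPM.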

How the results depend on the processing

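No paired analysis was possible because replicate numbers were given in accession order and no label links a Tg mouse to a WT mouse. Over 24 alternatives of the averaged effect, each gave 5 of the 9 genes higher and 1 lower; Slc7a8 ranged from -0.91 to -0.64 on the log2 scale with adjusted p from 0.000183 to 0.0207. The sign of Slc7a7, never called, turned with limma-voom (0.024), with the macrophage covariate (0.34, and 0.27 in females) and without single libraries (-0.17 to 0.060), and that of Slc7a6 turned without the 4 libraries richest in adipocyte markers (-0.019). In those 12 libraries the interaction was -0.092 for Slc3a2 and -0.20 for Slc7a5, and without single libraries it ran from -0.019 to 0.15 for Slc3a2, from -0.14 to 0.31 for Slc7a5 and from -1.35 to 2.70 for Slc7a11, none called; that of Slc7a3 ran from 0.75 to 2.14 over all alternatives, against 1.74; the cause was not tested. Without single libraries, 1 to 2 of the 9 genes were lower in females, the second being Slc7a2 without WT female 2. Genes called higher in females numbered 1382, and 914 without the 4 adipocyte-rich libraries and 858 with each sex fitted alone (fewer samples); with the macrophage covariate, chosen after seeing the data, 52.3% as many genes were called higher and 67.3% as many lower in females; genes called lower numbered 1034, 546 with each sex alone, and 674 (without Tg female 3) to 1463 without single libraries. The interaction had 0 genes higher and 1 lower, against 2 and 6 with no filter, 35 and 52 with DESeq2, 4 and 3 without the 4 adipocyte-rich libraries, 6 and 7 with the adipocyte covariate, and 0 to 11 and 0 to 12 (both largest without Tg male 4) without single libraries, and no transporter gene was among the calls. The alternative of protein length was not run, and coding length of the annotation was used in its place. Depth limits Slc7a11 and Slc7a3 in WT, with 3 and 30 counts in 8 libraries.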
